A study of Mus musculus with 16 samples.

Results

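The fibroblast growth factor (FGF) genes of the mouse pancreas are described here, with their receptors and the inhibitors that damp their signal. The members were all genes named Fgf or Fgfr followed by a number, together with Fgfrl1, Klb, the Sprouty and Spred genes, Dusp6, Il17rd, Etv4 and Etv5. Of the 24091 genes in each count table, 38 were members. They comprised 15 secreted paracrine ligands, 3 endocrine ligands, 4 intracellular factors, 6 receptors or co-receptors, 8 feedback inhibitors and 2 transcription factors. Spry3 was not analysed here.

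Polyadenylated RNA was sequenced from 16 libraries, each from its own animal. At embryonic day 16.5 (E16.5), 3 whole pancreata came from conditional knockout (KO) embryos, Pdx1:Cre;Tff2fl/fl, and 3 from control embryos, Tff2fl/fl. At 60 weeks of age, hand-picked islets came from 5 male KO mice and 5 male control mice of those genotypes. All animals carried the floxed Tff2 allele, which encodes the secreted trefoil factor 2, and the groups differed by the Cre transgene as well as by its effect on Tff2, which cannot be told apart here. The Pdx1 promoter drives Cre in the pancreatic epithelium, so mesenchyme, vessels and nerves would keep an intact allele. Litters are not given in the labels used here, and p-values measure the spread between these animals.

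Secreted FGFs bind receptor tyrosine kinases on neighbouring cells and activate the Ras and ERK cascade. That cascade induces the ETS-family factors Etv4 and Etv5 and a set of inhibitors, among them the Sprouty and Spred proteins and the phosphatase Dusp6, which limit it in turn. In the fetal pancreas, Fgf10 made by the mesenchyme acts on the epithelial receptor Fgfr2 and maintains the growth of progenitors. The Fgf11 to Fgf14 group differs from the rest: these proteins stay inside the cell and bind voltage-gated sodium channels.

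Levels are given as CPM, the counts of a gene relative to the scaled total of its library. Tff2 had 2.70, 9.96 and 1.60 CPM in KO pancreata 01, 18 and 19, against 38.7, 22.7 and 35.1 CPM in control pancreata 02, 08 and 13. In islets it had 0 to 0.48 CPM in KO libraries, against 0.98 to 4.70 CPM in controls. Neither pair of groups overlapped. Total counts ranged from 14866194 to 22699934 in pancreata and from 22595400 to 32385042 in islets. Islet libraries were rich in the insulin gene Ins1, between 32389 and 43118 CPM. They held little exocrine or mesenchymal RNA, with the acinar enzyme gene Cpa1 at 14.3 to 236 CPM and the collagen gene Col1a1 at 6.67 to 33.4 CPM. Fetal pancreata held epithelium and abundant mesenchyme, with Col1a1 at 4674 to 6579 CPM in KO and 4425 to 5360 CPM in control libraries. Of the pancreata, only KO 18 was male by its sex-linked transcripts, with Ddx3y at 134 CPM.

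The RNA of cell type markers differed between the KO and control pancreata. The part of cell makeup in the results below was not tested. Some values below are also given scaled to 15 epithelial genes. That scaling moves all genes of a library together, so it does not test this part. The summed level of 13 neural genes was 911, 495 and 296 CPM in KO 01, 18 and 19, against 146 to 160 CPM in controls, and 10 of the 13 rose while 1 fell. Dbh, which makes noradrenaline, had 19.6 to 96.0 CPM in KO pancreata and 0.14 to 0.35 CPM in controls. The summed level of 15 epithelial genes was 1894 to 2006 CPM in KO pancreata and 2364 to 2803 CPM in controls, and 10 of the 15 fell and none rose. For 12 mesenchymal genes the sums were 16158 to 22857 CPM in KO and 15897 to 18678 CPM in controls, and none of the 12 passed the test. Of other cell types, 11 of 12 endocrine and 2 of 9 endothelial genes fell, and 5 of 9 smooth muscle genes rose. Of 7 duct genes 3 fell and 1 rose, with sums of 819 to 963 CPM in KO pancreata and 1201 to 1231 CPM in controls. Of 10 acinar genes 1 fell, with sums of 25830 to 49796 CPM in KO pancreata and 54186 to 64936 CPM in controls. For 6 liver genes, KO 01 had a sum of 1533 CPM and the other KO pancreata 303 and 389 CPM, against 388 to 515 CPM in controls. In whole tissue, fewer cells of a type and less RNA per cell cannot be told apart.

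**Figure D1:**
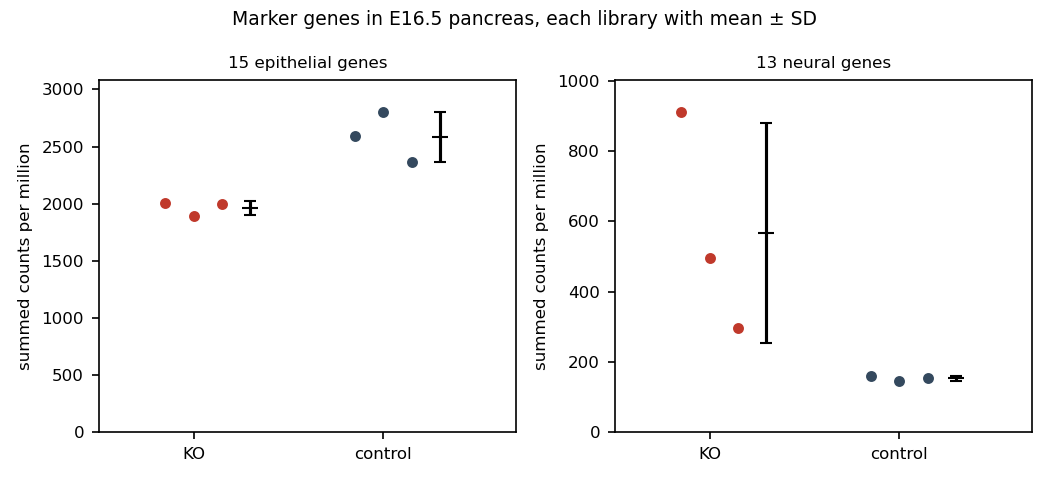
Summed CPM of 15 epithelial genes (left) and 13 neural genes (right) in each E16.5 pancreas, KO beside control, with mean ± SD at the side. KO libraries lie between 1894 and 2006 for the epithelial genes, below all controls, and at 296 or more for the neural genes, above all controls.

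Levels were first set against each other in control animals, as CPM per kb of gene length, scaled over all 16 libraries. Of the 38 members, 28 passed the filter on low counts in the joint model and 10 did not. All 28 differed between control islets and control E16.5 pancreas at an adjusted p under 0.05 (edgeR quasi-likelihood test with Benjamini-Hochberg adjustment): 7 were higher and 21 were lower in islets. Across all genes tested, 42.4% were higher and 43.6% were lower. Only through the pancreata, 7 of the members passed the filter: Fgf2, Fgf5, Fgf7, Fgf10, Fgf16, Fgf18 and Etv4. The 21 that passed in both tissues were therefore also counted. Of these, 7 were higher and 14 were lower in islets, against 44.8% and 40.6% of all genes past both filters. Their median log2 fold change was -1.56, and that of all such genes was 0.07. Tissue, age, sex and isolation of the cells differ together here and cannot be told apart.

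**Figure D2:**
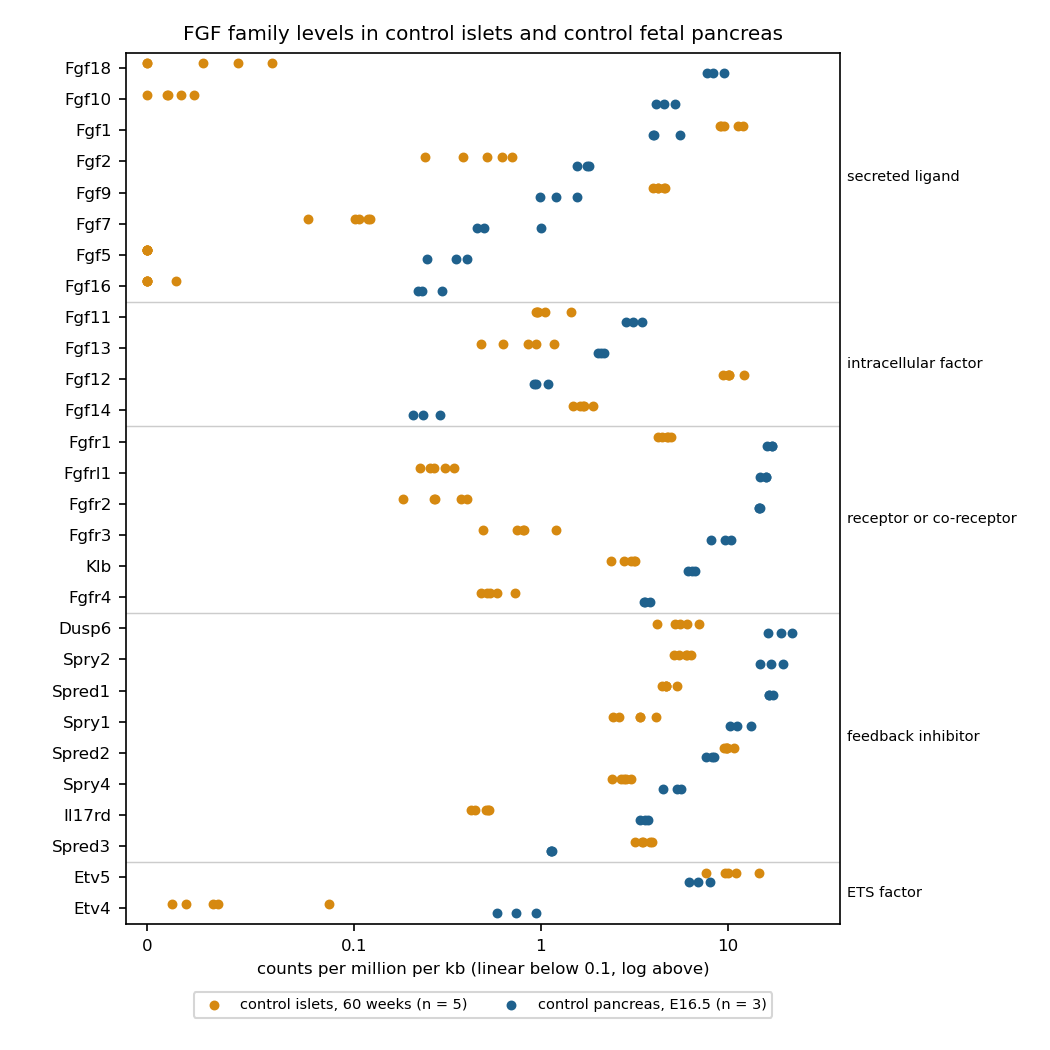
CPM per kb (horizontal axis, linear below 0.1 and log above) of the 28 members tested in the fetal pancreas, 1 point per control library, for 60-week islets and E16.5 pancreas. Members are ordered within each role by their level in pancreas. All receptors lie lower in islets, while Fgf12, Fgf14, Fgf9 and Spred3 lie higher.

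Among paracrine ligands, the leading gene per kb differed between the islets and the fetal pancreas. Fgf1, which can bind all FGF receptors, led in control islets at 10.3 ± 1.40 CPM per kb (SD, n = 5), followed by Fgf9 at 4.33 ± 0.26. In control pancreata (SD, n = 3), Fgf1 had 4.53 ± 0.90 and Fgf9 had 1.25 ± 0.29 CPM per kb, so both were higher in islets, by 1.18 and 1.79 on the log2 scale (adjusted p = 5.1e-06 and 6.93e-08, edgeR). Per kb, Fgf18 led in the control pancreas, and Fgf10 and Fgf1 followed at close levels. In CPM, without division by length, Fgf10 had 23.7 and Fgf1 21.9 there, above Fgf18 at 15.1. Fgf18 had 0.03 ± 0.03 CPM per kb in control islets and 8.57 ± 0.89 in control pancreas, a log2 difference of -8.19. Fgf10, the mesenchymal ligand of Fgfr2, had 0.01 ± 0.01 and 4.65 ± 0.54 CPM per kb in those groups, a log2 difference of -8.40. Over all control islets Fgf18 had 5 counts and Fgf10 had 7, so the size of both differences is imprecise. In no islet library did Fgf10 exceed 0.098 CPM. Fgf7, a second mesenchymal ligand of Fgfr2, and Fgf2 were lower in islets by log2 differences of -2.60 and -1.80. Fgf5 had no count in any of the 10 islet libraries, and its level in control islets was at least 33.1-fold lower than in control pancreata, taking 3 counts over the islet group as the floor. Fgf16 had 1 count over all control islets and 49 over the control pancreata. After scaling, the ratio of pancreas to islets was 93.5, with a 95% counting interval of 16.02 to 3768.

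The 10 members that passed no filter were the paracrine ligands Fgf3, Fgf4, Fgf6, Fgf8, Fgf17, Fgf20 and Fgf22 and the endocrine ligands Fgf15, Fgf21 and Fgf23. They had 0 to 5 counts per pancreas and 0 to 12 counts per islet library. Fgf20 and Fgf4 had no count over the 6 pancreata, which allows a level of up to 0.0278 CPM, and Fgf6 and Fgf8 had none over the 10 islet libraries, which allows up to 0.0115 CPM. These limits cover counting error only. Fgf21, the most counted of the 10 in islets, had 0.22 ± 0.16 CPM in KO islets and 0.27 ± 0.14 CPM in control islets (SD, n = 5 each). Klb, the co-receptor that Fgf21 and Fgf15 need, was measured well in both tissues, at 2.91 ± 0.34 CPM per kb in control islets and 6.46 ± 0.28 in control pancreas. Kl, the co-receptor of Fgf23 and not a member, had 60.4 to 86.0 CPM in islets and 1.02 to 3.68 CPM in pancreata over both genotypes.

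Receptor levels were lower in islets for all 6 genes. Fgfr1 was the leading receptor in both tissues, at 4.65 ± 0.30 CPM per kb in control islets and 17.0 ± 0.69 in control pancreas. Fgfr2, which carries the mesenchymal signal into the epithelium, had 0.30 ± 0.09 CPM per kb in control islets and 14.8 ± 0.16 in control pancreas, a log2 difference of -5.64. Fgfrl1, which binds FGFs but has no kinase, had 0.28 ± 0.05 in control islets and 15.7 ± 0.65 in control pancreas, a log2 difference of -5.82. Fgfr3 and Fgfr4 were lower in islets by log2 differences of -3.55 and -2.70, and Klb and Fgfr1 by -1.15 and -1.87. In the control pancreas the ranges of Fgfr1, Fgfrl1 and Fgfr2 lay close together, and the next receptor, Fgfr3, stood below them at 9.41 ± 1.14.

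The intracellular factors changed places between the tissues. Fgf12 was the highest in control islets, at 10.4 ± 1.06 CPM per kb against 0.98 ± 0.10 in control pancreas, a log2 difference of 3.41. Fgf14 had 1.68 ± 0.15 in control islets and 0.24 ± 0.04 in control pancreas, a log2 difference of 2.77. Fgf11 and Fgf13 led this group in the control pancreas, at 3.15 ± 0.30 and 2.10 ± 0.07, and were lower in islets by log2 differences of -1.56 and -1.37.

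Of the feedback genes, 6 inhibitors were lower in islets and 2, Spred2 and Spred3, were higher. Dusp6, the ERK phosphatase, had 5.61 ± 1.03 CPM per kb in control islets and 19.3 ± 2.86 in control pancreas. Spry2 had 5.81 ± 0.48 and 17.2 ± 2.40 in those groups, and Spred1 4.75 ± 0.35 and 17.0 ± 0.50. Spred2 and Spred3 were higher in islets by log2 differences of 0.31 and 1.66. With library totals in place of TMM scaling the median of all genes moved from -0.01 to -0.25 in log2, so the small difference of Spred2 is close to that shift. The ETS factors parted: Etv5 had 10.6 ± 2.58 in control islets and 7.06 ± 0.89 in control pancreas, a log2 difference of 0.59 (adjusted p = 0.0063, edgeR), whereas Etv4 was lower in islets by a log2 difference of -4.23.

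The KO embryos were then compared with their controls. At E16.5, 28 members were tested: Fgf13 and Fgf14 rose, Fgfr2 and Fgfr3 fell, and 24 did not pass the test. Of all 14914 genes tested, 3.75% rose and 2.68% fell, so counts of 2 in 28 are small and the result lies in the named genes. The median log2 fold change of the 28 was -0.05, and that of all genes was -0.00. The KO and control libraries did not overlap for 11 members. In 4 of these the KO libraries were all higher and in 7 all lower, against 15% and 16.1% of all genes. With any control pancreas left out, none of the 4 calls held (edgeR, adjusted p = 0.0665 to 0.183), and the fold changes kept their direction. Few genes passed in those fits, where 0 to 3 rose and 0 to 1 fell, with 2606 to 3420 genes at an unadjusted p under 0.05. Among KO libraries, the call of Fgf13 was lost without KO 19 (adjusted p = 0.0521) and that of Fgf14 without KO 01 or KO 18 (adjusted p = 0.0737 and 0.0683).

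**Figure D3:**
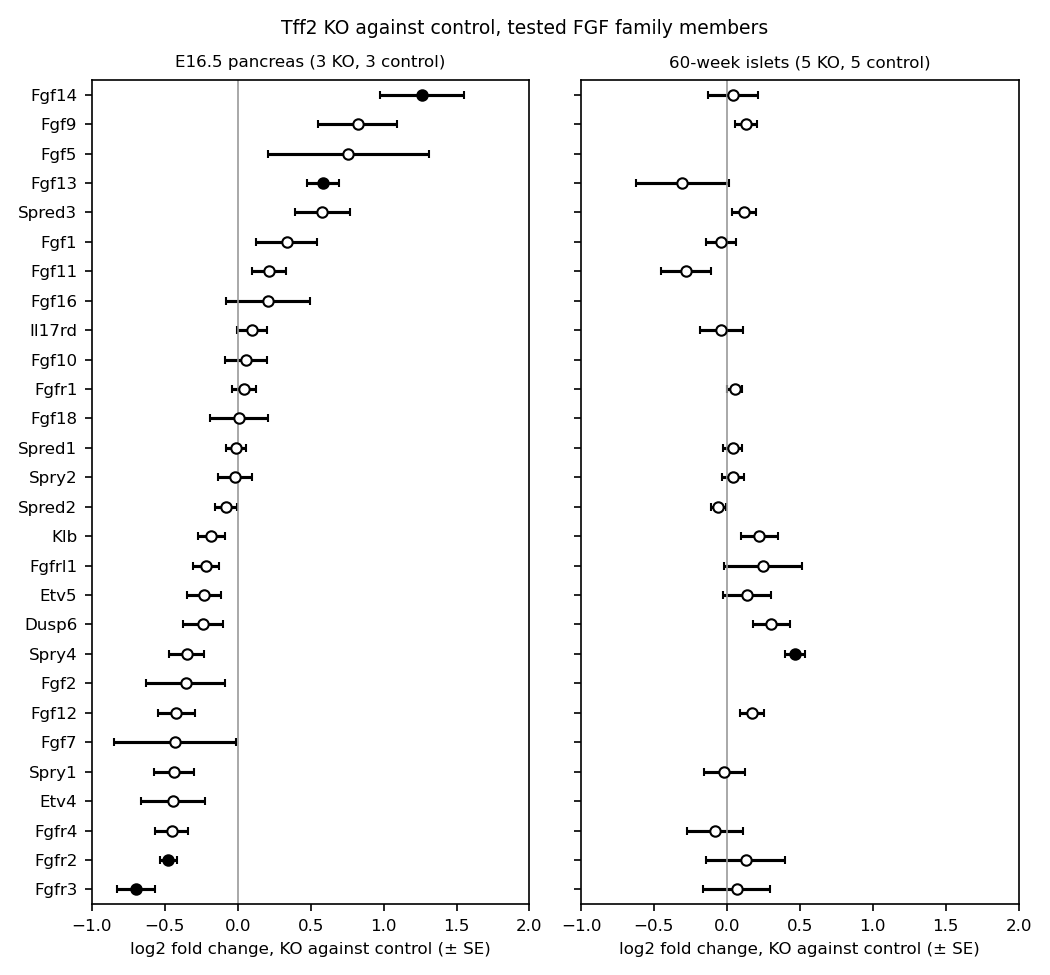
Log2 fold change of KO against control with its standard error for each tested member, in E16.5 pancreas (left, 3 KO and 3 control) and 60-week islets (right, 5 KO and 5 control). Filled points passed an adjusted p of 0.05: Fgf14, Fgf13, Fgfr2 and Fgfr3 in pancreas and Spry4 in islets.

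Of the 6 receptors, 2 fell in KO pancreata. Fgfr2 had 66.3, 74.4 and 70.8 CPM in KO pancreata, against 97.5, 97.1 and 99.2 CPM in controls. All KO libraries lay below all controls, and the controls lay within a few CPM of each other. Its log2 fold change was -0.48 ± 0.06 (SE, adjusted p = 0.0176, edgeR quasi-likelihood test). Fgfr3, a receptor best known for restraining bone growth, had 24.3, 28.0 and 33.0 CPM in KO pancreata and 47.5, 39.8 and 50.8 CPM in controls, again without overlap. Its log2 fold change was -0.69 ± 0.13 (adjusted p = 0.0287). Fgfr4 showed the same ordering, with 8.42, 9.35 and 10.4 CPM in KO and 12.4, 12.7 and 13.5 CPM in controls, but missed the threshold (log2 fold change -0.45 ± 0.11, adjusted p = 0.0562). Fgfrl1 had 41.9, 34.7 and 42.8 CPM in KO pancreata and 47.7, 47.3 and 44.2 CPM in controls (log2 fold change -0.22, adjusted p = 0.169). Fgfr1, which mesenchymal cells also express, had 112, 132 and 136 CPM in KO and 126, 117 and 126 CPM in controls, and these overlapped. Klb had 20.3, 21.0 and 24.3 CPM in KO pancreata and 24.9, 25.8 and 23.7 CPM in controls, with a log2 fold change of -0.18.

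The fall of these receptors is relative to the genes of the whole pancreas as scaled by TMM. When libraries were scaled to the 15 epithelial genes, the median log2 fold change of all genes became 0.43, with 9985 genes higher and 39 lower. On that scale Fgfr2 had a log2 fold change of -0.04 (adjusted p = 0.700), Fgfr3 of -0.27 (adjusted p = 0.171) and Fgfr4 of -0.02, and Fgfrl1 turned to 0.21. Of the 28 members 11 rose on it and none fell, while 9985 of all 14914 genes tested rose. The median of the 28 was 0.38, below the 0.43 of all genes. Among the 11 were Fgf13 and Fgf14, and Fgf9 and Spred3, which did not pass with TMM scaling.

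The deposited coordinates, on mm10, place Fgfr2 at chr7:130162451-130266808 on the minus strand, Fgfr3 at chr5:33721724-33737068 on the plus strand and Fgfr4 at chr13:55152818-55168759 on the plus strand. Because these receptors lay together on the low side, the 250 bases before each start were read from RefSeq (GRCm38.p6) and are given 5′ to 3′ on the gene's strand. They lie at chr7:130266809-130267058 for Fgfr2, chr5:33721474-33721723 for Fgfr3 and chr13:55152568-55152817 for Fgfr4. Capitals mark GC boxes, the letters GGGCGG or their reverse complement CCGCCC.
Fgfr2: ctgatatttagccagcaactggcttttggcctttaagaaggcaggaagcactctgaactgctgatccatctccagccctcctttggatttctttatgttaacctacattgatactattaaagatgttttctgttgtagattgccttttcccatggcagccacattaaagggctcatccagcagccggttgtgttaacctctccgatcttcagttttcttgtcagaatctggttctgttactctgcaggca
Fgfr3: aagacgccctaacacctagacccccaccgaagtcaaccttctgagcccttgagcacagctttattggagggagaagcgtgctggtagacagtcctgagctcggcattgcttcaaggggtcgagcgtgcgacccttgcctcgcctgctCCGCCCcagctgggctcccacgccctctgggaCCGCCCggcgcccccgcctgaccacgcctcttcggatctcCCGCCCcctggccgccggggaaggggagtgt
Fgfr4: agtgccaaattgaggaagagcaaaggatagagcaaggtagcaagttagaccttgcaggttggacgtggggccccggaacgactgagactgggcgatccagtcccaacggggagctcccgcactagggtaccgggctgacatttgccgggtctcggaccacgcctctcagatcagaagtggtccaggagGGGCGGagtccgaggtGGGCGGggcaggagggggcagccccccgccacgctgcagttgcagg
The Fgfr3 window shown held 3 GC boxes in 66.8% G and C, and the Fgfr4 window 2 in 64.0%. A further Fgfr3 window, at chr5:33722056-33722305 and not shown, held 2 in 72.8%. The Fgfr2 window held none in 44.0%. A GC box stood in 32.7% of all 32851 promoter windows of this length. Promoters were matched for 29 of the 38 members, with 37 windows, and 20 of these members had a GC box in any window. Some members have several windows, so this count is not like the share per window. The letters CCGGAAG or CTTCCGG, a core bound by ETS factors such as Etv4 and Etv5, stood in 6.91% of all windows and, among matched members, in that of Fgfrl1 only. These matches describe the letters and show no binding.

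Of the 4 intracellular factors, 2 rose in KO pancreata. Fgf13 (chrX:59062146-59585572, minus strand) had 10.4, 11.2 and 11.4 CPM in KO pancreata, against 7.12, 7.28 and 7.59 CPM in controls. The groups did not overlap and each was narrow, and KO 18, the male embryo, had 11.2 CPM. The KO values lay too close together for their order to be read. The log2 fold change of Fgf13 was 0.58 ± 0.11 (adjusted p = 0.0282, edgeR). Fgf14 (chr14:123978291-124677127, minus strand) had 2.91, 2.24 and 1.66 CPM in KO 01, 18 and 19 and 0.91, 1.12 and 0.81 CPM in controls. Among KO libraries it was highest in KO 01. Its log2 fold change was 1.26 ± 0.29 (adjusted p = 0.0424), and without KO 01 it was 1.04. Without KO 01 that of Fgf13 was 0.63 (adjusted p = 0.0217). Both genes are well known in neurons, and the part of the neural RNA in either result was not tested. Fgf12 had 7.15, 6.64 and 6.36 CPM in KO pancreata and 8.67, 8.35 and 10.01 CPM in controls, without overlap, and missed the threshold (log2 fold change -0.42 ± 0.13, adjusted p = 0.0865). Scaled to the epithelial genes, its fold change was -0.00. Fgf11 had 10.5, 10.02 and 11.4 CPM in KO and 8.40, 10.1 and 9.15 CPM in controls.

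**Figure D4:**
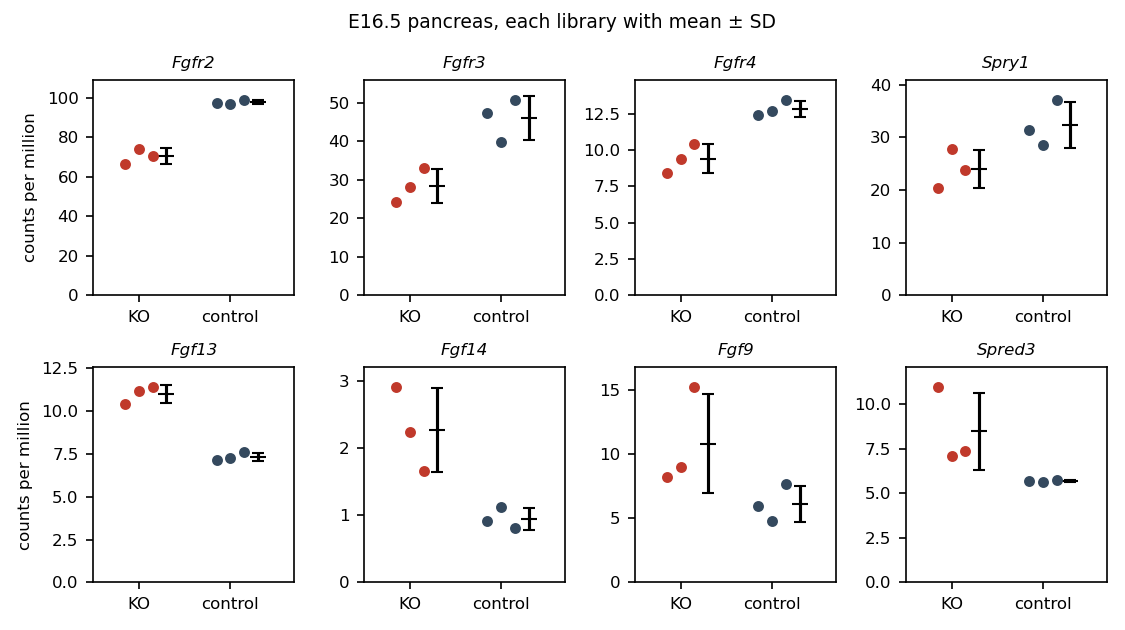
CPM of 8 members in each E16.5 pancreas, KO beside control, with mean ± SD at the side and each axis from 0. In the upper row all KO libraries lie below all controls, and in the lower row all lie above, though only Fgfr2, Fgfr3, Fgf13 and Fgf14 passed the test.

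None of the 8 paracrine ligands tested in the pancreas passed the threshold. Fgf10 had 20.2, 29.0 and 24.8 CPM in KO pancreata and 21.2, 23.3 and 26.7 CPM in controls, and these overlapped (log2 fold change 0.06 ± 0.14). Fgf18 had 10.8, 19.5 and 15.6 CPM in KO and 14.8, 13.7 and 16.9 CPM in controls, with a log2 fold change of 0.01 ± 0.20. Fgf10, the ligand, had 0.06 and Fgfr2, its epithelial receptor, -0.48, and these values were not tested against each other. Fgf9, which fetal mesothelium and epithelium make in several organs, had 8.21, 9.01 and 15.3 CPM in KO pancreata, against 5.93, 4.82 and 7.65 CPM in controls. All KO libraries were higher and KO 19 highest (log2 fold change 0.82 ± 0.27, adjusted p = 0.104). Of 12 alternatives it did not pass in 9, and over all 12 its log2 fold change ran from 0.49 to 1.24. The 3 in which Fgf9 passed were DESeq2 (0.83, adjusted p = 0.0340), the fit without KO 01 (1.00, adjusted p = 0.0468, edgeR) and epithelial scaling. DESeq2 called 918 of all genes higher, where edgeR with TMM scaling called 560. Beside Fgf9, the summed level of 6 mesothelial genes was 366 to 553 CPM in KO and 296 to 409 CPM in controls, and 1 of the 6 rose. Fgf1 had 20.6, 35.7 and 26.8 CPM in KO and 19.5, 19.3 and 26.9 CPM in controls, with a log2 fold change of 0.34. Fgf2, Fgf5, Fgf7 and Fgf16 stayed at 3.03 CPM or lower in every KO library and at 3.51 CPM or lower in every control. Their log2 fold changes ran from -0.43 for Fgf7 to 0.76 for Fgf5. For Fgf5 only KO 19, at 3.03 CPM, lay above the controls, which had 0.68 to 1.12 CPM. The highest value of Fgf7 was that of control 13, 3.51 CPM.

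Of the 8 feedback inhibitors tested in the pancreas none passed. Spry1, an inhibitor induced by FGF signalling, had 20.4, 27.8 and 23.7 CPM in KO pancreata and 31.3, 28.6 and 37.2 CPM in controls. The groups did not overlap, but KO 18 came close to control 08 (log2 fold change -0.44 ± 0.14, adjusted p = 0.0925). Spry4 had 18.2, 23.3 and 21.0 CPM in KO and 27.6, 23.1 and 28.9 CPM in controls, which overlapped (log2 fold change -0.35 ± 0.12, adjusted p = 0.118). Scaled to the epithelial genes, Spry4 turned to 0.08 and Spry1 had -0.01. Dusp6 had 43.6, 59.7 and 49.8 CPM in KO and 60.1, 51.2 and 69.2 CPM in controls, with a log2 fold change of -0.24. Spred3 was on the other side, with 11.0, 7.11 and 7.37 CPM in KO and 5.66, 5.66 and 5.75 CPM in controls (log2 fold change 0.58 ± 0.19, adjusted p = 0.0990), and KO 01 stood highest. Spry2, Spred1, Spred2 and Il17rd lay between -0.08 and 0.10. The ETS factors Etv4 and Etv5 had log2 fold changes of -0.44 and -0.23 (adjusted p = 0.247 and 0.253). Etv4 had 2.44, 2.57 and 2.38 CPM in KO pancreata and 4.15, 2.58 and 3.28 CPM in controls, nearly touching. Etv5 had 24.2, 29.2 and 24.5 CPM in KO pancreata and 30.0, 26.8 and 34.6 CPM in controls, which overlapped.

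Other genes of the pathway were counted in 3 lists, beside 3.75% of all genes that rose and 2.68% that fell. Among 23 co-receptor and matrix genes 3 rose and none fell in KO pancreata. They were Gpc2, a heparan sulfate proteoglycan, with a log2 fold change of 0.70, and Sulf1 and Sulf2, which trim sulfate from heparan sulfate, with 0.60 and 0.24 (adjusted p = 0.0402, 0.0419 and 0.0462, edgeR). The list's median was 0.08, and that of all genes -0.00. Among 21 transduction genes only Nf1, which switches off Ras, rose (0.30, adjusted p = 0.0436), and the median was 0.09. Among 13 output genes none rose and 2 fell: Sox9, a progenitor and duct transcription factor, with -0.47 (adjusted p = 0.0186), and Ier2, an immediate early gene, with -0.35 (adjusted p = 0.0423). That median was -0.22. With library totals Ier2 had -0.27 and did not pass (adjusted p = 0.0713). Scaled to the epithelial genes, Sox9 had -0.04 and Ier2 turned to 0.08, neither passing, while Gpc2, Sulf1, Sulf2 and Nf1 had 1.12, 1.03, 0.67 and 0.73.

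In islets of 60-week-old males, 21 members were tested. Spry4 rose, none fell and 20 did not pass. Of all 14219 genes tested, 0.113% rose and 0.0422% fell. An unadjusted p under 0.05 (edgeR) was found for 2 of the 21 members, Spry4 and Dusp6, both higher in KO. Counting both directions, it was found for 1021 of the 14219 genes. Spry4, which restrains receptor tyrosine kinase signalling upstream of ERK, had 17.0, 15.995, 15.5, 17.4 and 15.5 CPM in KO islets 055, 122, 803, 812 and 845. Control islets 052, 826, 829, 857 and 858 had 13.0, 12.2, 11.4, 12.0 and 10.3 CPM. All 5 KO libraries lay above all 5 controls, which was so for no other member, and for 0.781% of all genes. The KO libraries were all lower for none of the members, against 0.774% of all genes. The log2 fold change of Spry4 was 0.47 ± 0.07 (SE, adjusted p = 0.0229, edgeR quasi-likelihood test). Its fold change lay between 0.42 and 0.50 under all 15 alternatives. The adjusted p rose to between 0.0507 and 0.0661 without control 826, 829, 857 or 858 or without KO 803 or 812.

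The other feedback genes of islets did not pass. Dusp6 had 22.5, 17.3, 17.8, 15.7 and 16.9 CPM in KO islets and 18.3, 11.0, 14.5, 13.6 and 15.7 CPM in controls, with overlap (log2 fold change 0.30 ± 0.13, unadjusted p = 0.0332, adjusted p = 0.627, edgeR). Spry1 and Spry2, the relatives of Spry4, had log2 fold changes of -0.02 and 0.04, with 7.31 ± 0.76 and 11.6 ± 0.75 CPM in KO islets and 7.41 ± 1.57 and 11.3 ± 0.92 CPM in controls. Spred1, Spred2, Spred3 and Il17rd lay between -0.06 and 0.12. Etv5 had 42.1 ± 7.72 CPM in KO islets and 38.2 ± 9.33 CPM in controls (SD, n = 5 each).

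**Figure D5:**
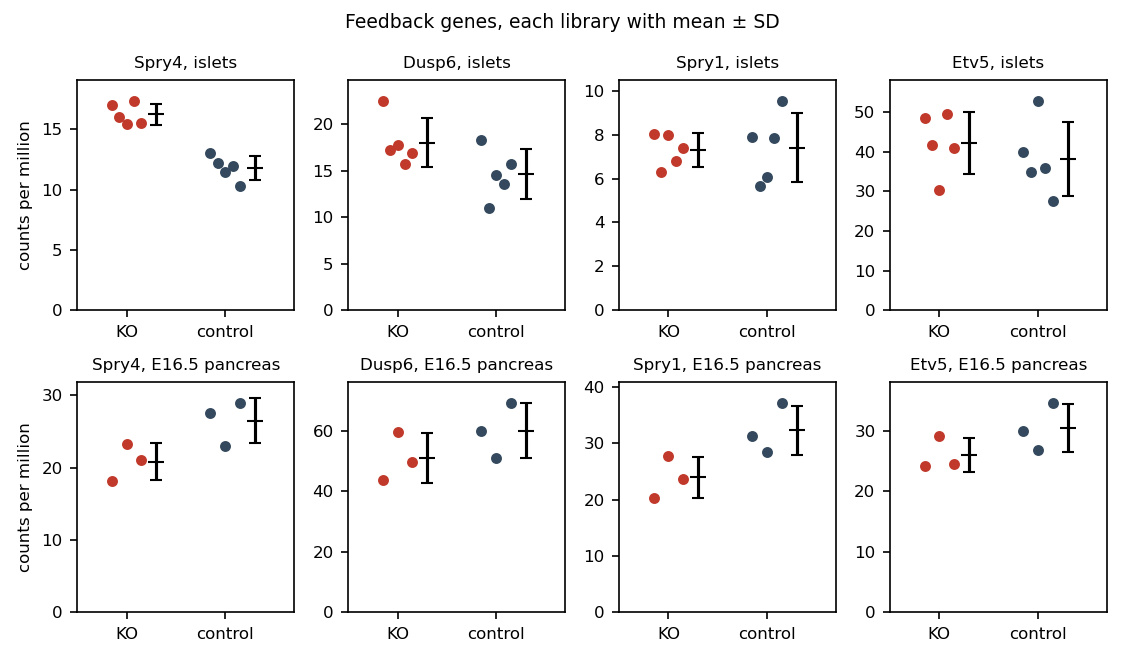
CPM of Spry4, Dusp6, Spry1 and Etv5 in each library of islets (upper row) and E16.5 pancreas (lower row), KO beside control, with mean ± SD at the side and each axis from 0. Spry4 is higher in all 5 KO islet libraries and has its lowest values among the KO libraries in the pancreas.

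No ligand, receptor or intracellular factor passed in islets. Fgf1 and Fgf9, the leading ligands, had 40.2 ± 5.33 and 19.4 ± 2.08 CPM in KO islets and 41.4 ± 5.59 and 17.7 ± 1.05 CPM in controls. Fgf12, the leading intracellular factor, had 102, 80.0, 85.1, 84.0 and 97.8 CPM in KO islets and 78.2, 77.3, 93.7, 77.7 and 72.2 CPM in controls, with overlap (log2 fold change 0.17 ± 0.08, adjusted p = 0.704). Fgf11, Fgf13 and Fgf14 had log2 fold changes of -0.28, -0.30 and 0.04. Fgfr1 had 29.1 ± 0.99 CPM in KO islets and 28.0 ± 1.80 CPM in controls, with a log2 fold change of 0.05 ± 0.05. Klb had 10.8 ± 1.98 and 9.31 ± 1.09 CPM (log2 fold change 0.22, adjusted p = 0.778). Fgfr2, Fgfr3, Fgfr4 and Fgfrl1 had 4.92 CPM or less in every islet library, and their log2 fold changes ran from -0.08 to 0.25. No gene of the 3 pathway lists passed in islets, of 22, 21 and 13 tested, and no marker gene of another cell type passed.

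Whether the KO effect differed between the tissues was tested over all 16 libraries, as the effect in E16.5 pancreas minus that in islets. Fgf14 was higher and Fgf12 and Spry4 were lower by this test, of 28 members. Of all 15823 genes 3.25% were higher and 3.94% lower. Spry4 had a log2 fold change of -0.35 in pancreas and 0.47 in islets, and the difference was -0.83 ± 0.13 (adjusted p = 0.00219, edgeR). The call held under all 19 alternatives, where the difference ran from -0.92 to -0.74 and the adjusted p from 2.47e-06 to 0.0101. The interaction was not fitted with epithelial scaling, where the pancreas value of Spry4 was 0.08. Fgf12 had -0.42 in pancreas and 0.17 in islets, a difference of -0.61 ± 0.15 (adjusted p = 0.0250), which did not pass without pancreas control 02 or 13 or KO 19 (adjusted p = 0.0534, 0.0646 and 0.0562). Fgf14 had 1.26 in pancreas and 0.04 in islets, a difference of 1.21 ± 0.35 (adjusted p = 0.0465), which did not pass in 13 of 19 alternatives. Although Fgfr2, Fgfr3 and Fgf13 passed in pancreas and not in islets, their differences of -0.63, -0.79 and 0.87 did not pass (adjusted p = 0.192, 0.119 and 0.230), so the effects are not shown to differ between the tissues. In the other pathway lists Sdc3, a cell-surface proteoglycan, was higher by 0.46 (adjusted p = 0.0353) and Map2k2, an ERK kinase, lower by a difference of -0.33 (adjusted p = 0.0418). Age, sex and tissue composition differ between the experiments together with tissue and cannot be told apart.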

How the data were processed

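Per the labels' protocols, RNA was extracted from each sample and polyadenylated RNA libraries were prepared with the Kapa HyperPrep chemistry. The authors' tables give whole-number read counts for each gene, deposited without normalization, beside an other column, the gene length in kb, used here for levels per kb. The submitters' processing notes list HTSeq 0.11.1, STAR 2.6.0, Trimmomatic and edgeR as tools and mm10 as the build, without roles. For the annotation counted and the use of strand, the sources used here say nothing. In GENCODE M21, exons of some members overlap other genes: Fgf2 with Nudt6 (9.44% of its exon bases), Spred3 with Ggn (3.25%), Fgfr1 with Gm16159 (1.66%), Fgfr3 with G630022F23Rik (13.9%), Spry1 with Gm42922 (24.4%) and Fgf14 with Gm28932 (5.26%) on the opposite strand, and Fgfr2 with Ctbp2 (3.04%) on the same strand. Whether reads from the shared bases were told apart is not known, and for pairs on opposite strands it depends on the use of strand.

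Groups follow the genotype and title in the labels. Libraries of a group all differed beyond sampling noise (chi-square per degree of freedom at least 5.09 in pancreata and 6.52 in islets). Tests were made on the deposited counts with the quasi-likelihood method of edgeR 4.0.16 (R 4.3.3), with TMM scaling, filterByExpr and Benjamini-Hochberg adjustment over all genes tested, at a threshold of 0.05. The KO comparisons were fitted within each tissue, and the interaction and the comparison of tissues in 1 model of 4 groups. Standard errors are the fold change divided by the root of F. CPM in the KO comparisons is scaled within a tissue. The fits were tested on simulated data, with changes larger than those of the members that passed in the KO comparisons. Only well-counted genes were changed there, so smaller changes and low-count genes were not covered.

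The members and lists were chosen with earlier results of these data known. Members were named when they passed in a KO comparison or the interaction, when their unadjusted p was under 0.05 without overlap of the groups, or when they were among the 3 highest of their role in a tissue's controls, which gave 23. Other members are named to account for them. Alternatives were library totals, DESeq2 1.42.0, limma-voom of limma 3.58.1 with quality weights, no low-count filter, a minimum of 1 CPM, scaling to epithelial genes, and each library left out.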

Additional observations from a re-analysis of the deposited data

Results flagged for a closer look

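In control islets, 3 members had a library far from the other 4. Fgf11 had 3.52 CPM in control 826, where the others had 2.30 to 2.57 CPM. Spred1 had 35.4 CPM in that library, against 29.2 to 30.8 CPM in the others. Fgf12 had 93.7 CPM in control 829, against 72.2 to 78.2 CPM in the others. These are 3 of 42 groups examined, and chance alone sets apart about 1 group in 20.

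The KO effect differed between E16.5 pancreas and islets for 3 members by the interaction test of edgeR. The pancreas effect minus the islet effect was -0.61 for Fgf12, 1.21 for Fgf14 and -0.83 for Spry4 on the log2 scale. For Fgf12 and Spry4 the fold change was negative in pancreas and positive in islets with TMM scaling, and with epithelial scaling the pancreas values were -0.00 and 0.076. The control library 829 that stood apart for Fgf12 had the highest control value, inside the range of the KO islets.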

How the results depend on the processing

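No paired analysis was possible because the groups share no animal numbers. The 10 untested ligands had too few counts to compare, and low counts came with wide errors on Fgfr2, Fgfr3, Fgfr4 and Fgfrl1 in islets.

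In E16.5 pancreata, leaving out 1 library gave 0 to 2 members that rose and 0 to 2 that fell, and 0 to 694 and 0 to 395 of all genes, with 0 or nearly 0 whenever a control was left out. Scaling to epithelial genes gave 11 members that rose and 0 that fell, and 9985 and 39 genes. It reversed Fgfrl1 to a log2 fold change of 0.21 and Spry4 to one of 0.076 (neither passed). DESeq2 called 918 genes higher and 632 lower, and library totals 779 higher and 179 lower, a share higher of 81.3% against 58.4%. The cause of these shifts was not tested.

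In islets, leaving out 1 library gave 0 to 1 members that rose, and 3 to 16 genes that rose and 2 to 10 that fell. DESeq2 called 65 and 47 genes, and limma-voom 11 lower. For the interaction, leaving out 1 library gave 0 to 1 members higher and 1 to 3 lower, with 254 to 625 and 261 to 666 genes. With no low-count filter 0 members were higher (1 with the filter; 3677 genes had an unadjusted p under 0.05), and library totals called 608 genes higher and 299 lower, a share higher of 67% against 45.2%. Between control islets and control pancreas, library totals called 5550 genes higher and 7972 lower. The same 7 and 21 counts of members, higher and lower, came with each control library left out.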
